A study of Mus musculus with 6 samples.

Results

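The antioxidant genes that respond to the transcription factor NRF2, together with 1 membrane subunit of the NADPH oxidase, were described in mouse hepatic progenitor cells. The set held 10 genes of the 18138 gene symbols on the array: Nfe2l2 (which encodes NRF2), Keap1, Gclc, Gclm, Txnrd1, Prdx1, Srxn1, Nqo1, Hmox1 and Cyba. Every probe carrying 1 of these symbols in the deposited table was taken, which gave 18 of 25697 probes. The rule uses the gene symbol and no measured value, but the genes were picked with earlier results of these data known. The study profiled RNA of hepatic progenitor cells, immature epithelial cells of the liver that can form hepatocytes and bile duct cells, on 6 Illumina bead arrays of 1 colour. There were 3 arrays of cells with 2 floxed alleles of the EGF receptor gene (Egfr fl/fl) and 3 of cells with 2 floxed alleles of the HGF receptor gene (Met fl/fl). All 6 samples came from C57BL/6 control livers, and both groups carry floxed alleles, so there was no array from cells without them. Floxed alleles stay intact until a recombinase acts, and the labels name no recombinase, treatment, age or culture time. They also leave it unsaid if each sample stands for its own animal or culture.

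NRF2 drives the main inducible defence of a cell against oxidants and electrophiles. In unstressed cells its partner KEAP1 ties it to a CUL3 ubiquitin ligase and it is degraded, while oxidants or electrophiles that modify cysteines of KEAP1 let NRF2 build up, pair with a small MAF protein and bind antioxidant response elements near its target genes. The targets make and recycle glutathione and thioredoxin, supply NADPH, break down heme and detoxify quinones and other reactive compounds, and in the liver they limit injury by drugs and bile acids. The NADPH oxidases work the other way, passing electrons from NADPH to oxygen to make superoxide or hydrogen peroxide, and Cyba encodes a membrane partner that several of them need.

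The deposited signal is a background-subtracted brightness in arbitrary units. Its mean over all probes ran from 241 to 398 units between arrays and was highest on Met fl/fl replicate 1, so the tests used log2 values after background correction and quantile normalization. Between 43.8% and 45.3% of probes were detected on each array, meaning that their detection p, the share of negative control probes at least as bright, was under 0.05. Arrays of 1 group had Pearson r of 0.967 to 0.992 over tested probes, and arrays of different groups 0.891 to 0.921. Egfr fl/fl replicate 3 was the array least like the others of its group, with r of 0.971 and 0.967 against replicates 1 and 2. With 3 arrays a group the p-values rest on the spread among these samples alone, and that spread may be technical. No label names a slide or batch, so an effect of either cannot be told apart from genotype. In these bulk samples fewer cells with a transcript and less transcript per cell cannot be told apart either. Of the listed biliary and progenitor markers Krt8, Krt18, Krt19, Sox9, Spp1 and Cdh1 were detected on all 6 arrays, while Prom1 and Dlk1 were detected on none and Afp on 1. Of 10 hepatocyte markers with a probe 6 were detected on no array, among them Alb, which encodes the albumin of mature hepatocytes. Of the 4 tested, 2 were higher and 1 was lower in Met fl/fl (median difference 0.86). The summed signal of the hepatocyte list ran from 2821 to 3192 units in Egfr fl/fl and from 4525 to 7649 units in Met fl/fl. Of 10 tested biliary and progenitor markers 6 were lower in Met fl/fl and 0 were higher there. Over all tested genes 18.6% were lower and 22.8% were higher in Met fl/fl at a limma adjusted p under 0.05. The 10 markers of stellate cells and fibroblasts summed to 576 to 746 units in Egfr fl/fl and only 45.1 to 68.8 units in Met fl/fl, a contrast carried almost wholly by Acta2, the smooth muscle actin gene (507, 601 and 366 units against 5.11, 2.67 and -1.88). These units are of the brightest Acta2 probe, with a log2 difference of -4.45. Its Met fl/fl signals lie under the lowest detected there (14.1, 11.6 and 10.4 units), so that difference rests on background values. The other tested Acta2 probes gave -1.05, -1.11 and -0.51, of which the last did not pass (limma adjusted p = 0.0737). Only Acta2 and Dcn of this list were tested. Dcn read 21.1 to 28.0 units in Egfr fl/fl, and Col1a1, Col3a1, Lrat, Lum and Reln were detected on no array. The part of these markers' cells in the differences below was not tested.

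Of the 18 probes 15 were tested, from 9 genes, because they were detected on at least 3 arrays. Cyba rose in Met fl/fl by far more than any other member, and Nfe2l2, 1 of 4 Keap1 probes and Txnrd1 were higher in Egfr fl/fl. The probes of Gclc, Gclm, Prdx1, Srxn1 and Hmox1 did not pass the test, and Nqo1 was not detected on any array. In all 4 of 15 tested probes (26.7%) passed a limma adjusted p of 0.05, with 1 higher and 3 lower in Met fl/fl. Over all 11578 tested probes 39.8% passed (21.6% higher and 18.2% lower in Met fl/fl), so the members did not pass more often than probes in general. The larger direction among all probes turned with the scaling, with 1439 probes higher and 1731 lower in Met fl/fl after median scaling and 2223 and 2265 after cyclic loess, against 2503 and 2110 here. The groups were fully separated in 7 of the 15 tested probes (46.7%), against 50.1% of all tested probes. Differences are on the log2 scale with Egfr fl/fl subtracted from Met fl/fl, and the median over all tested probes was 0.056.

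**Figure D1:**
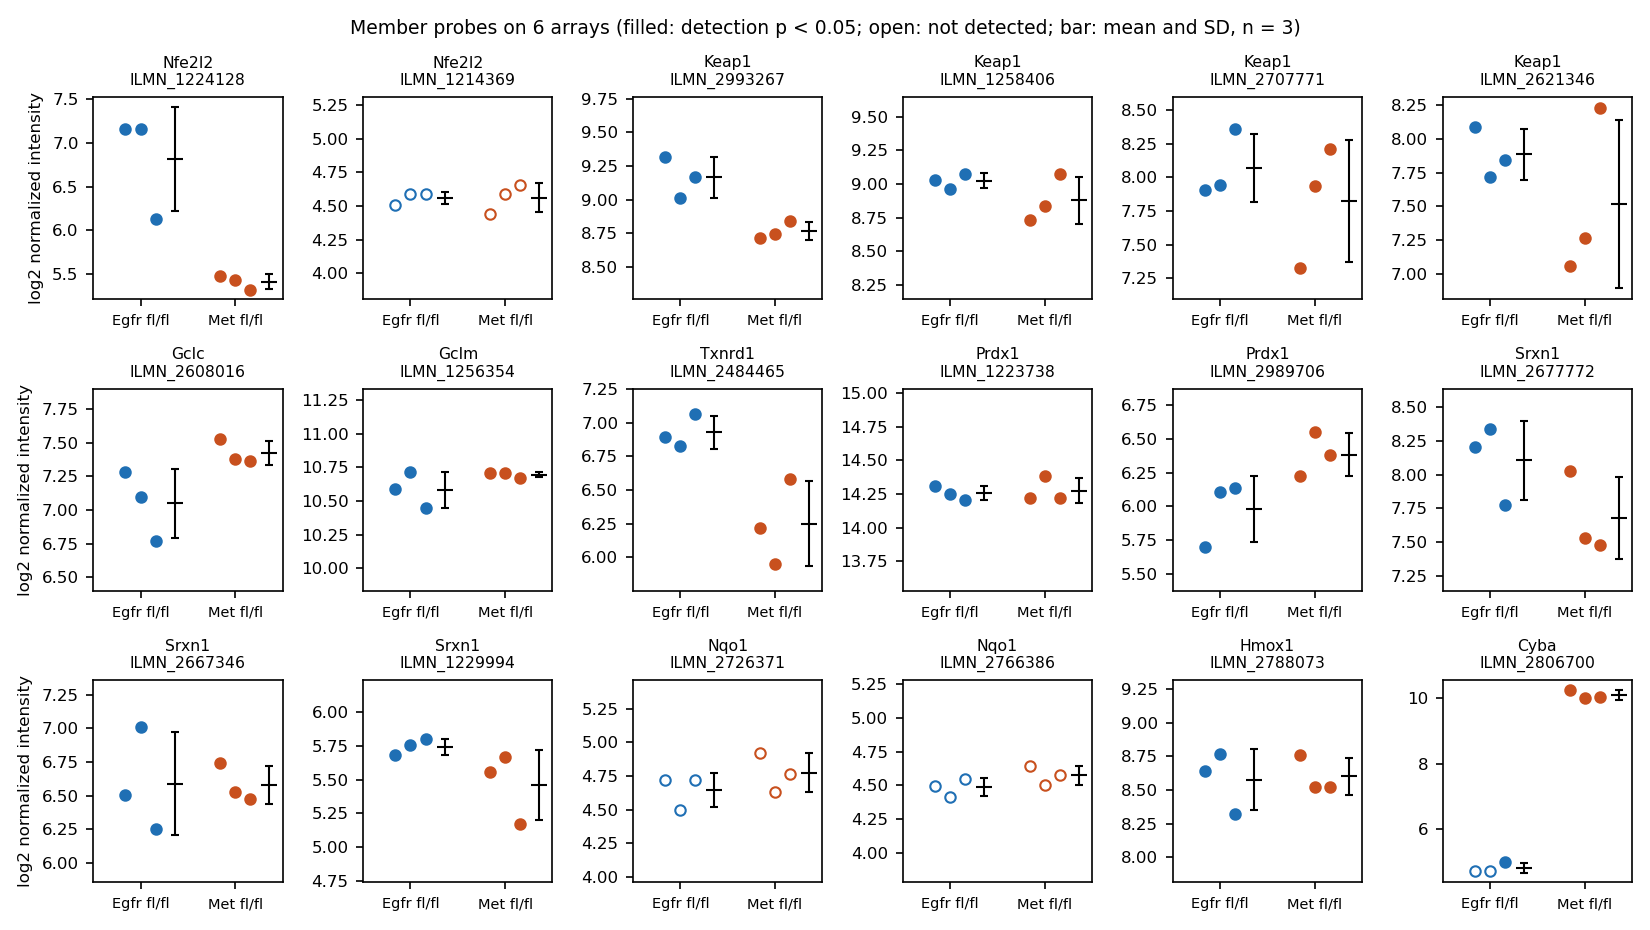
Log2 normalized intensity (y axis, each panel on its own range) of the 18 member probes on the 3 Egfr fl/fl arrays (blue) and the 3 Met fl/fl arrays (orange), in replicate order. Filled points were detected and open points were not, the bars give mean and SD with n = 3, and the Cyba panel alone spans from 4.72 to 10.25.

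The promoter windows available for 8 of the 10 members (not Gclc and Hmox1) came from RefSeq on build GRCm38.p6. They were searched on both strands for the core of the antioxidant response element, TGACNNNGC, and for the element TGANTCAGC of the same length. NRF2 and small MAF proteins are known to bind the latter. Each window runs from 250 bases before the gene's start to 50 bases after it. The core was found in windows of 5 members (Nfe2l2, Gclm, Txnrd1, Prdx1 and Srxn1) and in 12.4% of all 32851 windows. The count is of members and the share is of windows. The members had 10 windows, since Txnrd1 has 3, of which window 2 alone holds the core. The TGANTCAGC element was found in 2 members, Prdx1 and Srxn1, and in 1.19% of all windows. It always contains the AP-1 element TGANTCA, which was found in 7.81% of windows, and in Prdx1 it lies on the same bases as the core. Windows are shown for 4 members: the regulator Nfe2l2, the 2 with the TGANTCAGC element, and Cyba, which differed most between the groups and holds neither motif. Capitals mark the bases that match the core or the TGANTCAGC element, read 5′ to 3′ on the strand of the gene.
Nfe2l2 (chr2:75704614-75704913, minus strand): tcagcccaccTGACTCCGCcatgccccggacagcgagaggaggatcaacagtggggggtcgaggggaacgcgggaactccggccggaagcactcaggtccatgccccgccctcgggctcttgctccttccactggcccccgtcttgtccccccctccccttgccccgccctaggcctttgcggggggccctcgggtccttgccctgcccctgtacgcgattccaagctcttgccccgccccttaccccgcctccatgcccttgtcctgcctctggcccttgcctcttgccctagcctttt
Prdx1 (chr4:116685349-116685648, plus strand): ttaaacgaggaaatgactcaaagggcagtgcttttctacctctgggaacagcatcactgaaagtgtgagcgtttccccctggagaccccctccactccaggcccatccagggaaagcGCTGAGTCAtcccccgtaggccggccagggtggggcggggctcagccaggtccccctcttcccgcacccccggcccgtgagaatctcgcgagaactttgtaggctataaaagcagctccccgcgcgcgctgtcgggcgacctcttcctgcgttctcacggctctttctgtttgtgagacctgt
Srxn1 (chr2:152105274-152105573, plus strand): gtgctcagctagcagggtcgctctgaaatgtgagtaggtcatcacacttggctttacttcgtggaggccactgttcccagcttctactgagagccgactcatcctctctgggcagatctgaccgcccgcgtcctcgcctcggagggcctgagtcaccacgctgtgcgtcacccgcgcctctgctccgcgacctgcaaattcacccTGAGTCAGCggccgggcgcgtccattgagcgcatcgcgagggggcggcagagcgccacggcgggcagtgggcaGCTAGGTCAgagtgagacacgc
Cyba (chr8:122432891-122433190, minus strand): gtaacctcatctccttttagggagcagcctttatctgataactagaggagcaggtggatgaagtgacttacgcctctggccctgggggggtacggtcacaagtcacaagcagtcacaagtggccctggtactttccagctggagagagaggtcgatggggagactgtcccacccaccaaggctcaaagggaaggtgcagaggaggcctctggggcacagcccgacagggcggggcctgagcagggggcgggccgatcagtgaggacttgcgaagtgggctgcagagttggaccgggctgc
The match in Nfe2l2 lies at -240 to -232 from the start and reads as the core on the gene's own strand. In Prdx1 the match lies at -133 to -125 on the opposite strand. Srxn1 has the TGANTCAGC element at -45 to -37 on its own strand and a core match at 29 to 37 on the opposite strand. A match of letters describes the sequence and does not show that a factor binds there.

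Nfe2l2 transcript was lower in Met fl/fl cells by its detected probe. Probe ILMN_1224128 read 100.03, 103 and 66.3 units of deposited signal in Egfr fl/fl, in the order of replicates 1, 2 and 3, and 37.4, 24.9 and 20.0 units in Met fl/fl. All 3 Egfr fl/fl arrays were brighter than all 3 Met fl/fl arrays, although Egfr fl/fl replicate 3 lay well below the other two of its group. Egfr fl/fl had a log2 level of 6.81 ± 0.59 (SD, n = 3), against 5.41 ± 0.09 in Met fl/fl. That is a difference of -1.40 ± 0.28 (SE), 2.64-fold higher in Egfr fl/fl (limma adjusted p = 0.00299). Leaving out Egfr fl/fl replicate 3 made it -1.73. The Met fl/fl signals were detected but close to the background, where the lowest detected signals were 14.1, 11.6 and 10.4 units on replicates 1, 2 and 3. The further Nfe2l2 probe, ILMN_1214369, ran from -9.20 to 2.15 units and was detected on no array, so it gives no second measurement.

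Keap1, the sensor that holds NRF2 back, was measured by 4 probes, all detected on all 6 arrays and all lower in Met fl/fl, by -0.14 to -0.40, of which 1 passed. The brightest, ILMN_2993267, read 496, 411 and 641 units in Egfr fl/fl and 562, 413 and 418 units in Met fl/fl. These signals overlap, and after normalization the log2 levels did not, at 9.32, 9.01 and 9.17 in Egfr fl/fl against 8.71, 8.74 and 8.84 in Met fl/fl. Its difference was -0.40 ± 0.14 (SE), or 1.32-fold (limma adjusted p = 0.0466). This call is close to the threshold and ended when any array but Egfr fl/fl replicate 3 was left out, with adjusted p from 0.0544 to 0.188, with median scaling (0.3801), with no filter on dim probes (0.1033) and with no variance trend (0.0588).

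The other Keap1 probes did not pass. ILMN_1258406 had log2 levels of 9.03, 8.96 and 9.08 in Egfr fl/fl and 8.73, 8.83 and 9.07 in Met fl/fl, a difference of -0.14 (95% interval -0.47 to 0.18). ILMN_2707771 differed by -0.24 (-0.78 to 0.29), with Met fl/fl levels of 7.33, 7.94 and 8.21 that spread over the Egfr fl/fl range of 7.91 to 8.36. ILMN_2621346 had 8.09, 7.72 and 7.85 in Egfr fl/fl and 7.06, 7.26 and 8.23 in Met fl/fl, so Met fl/fl replicate 3 lay above all Egfr fl/fl arrays while the other two lay below them. Its difference was -0.37 (-1.003 to 0.26), and -0.73 without that array (adjusted p = 0.0359).

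The enzyme that makes the first and limiting step of glutathione synthesis, glutamate-cysteine ligase, has a catalytic subunit encoded by Gclc and a modifier subunit encoded by Gclm. Gclc probe ILMN_2608016 read 108, 99.1 and 115 units in Egfr fl/fl and 239, 152 and 139 units in Met fl/fl. The signals and the log2 levels did not overlap, with 7.28, 7.10 and 6.77 in Egfr fl/fl below 7.53, 7.38 and 7.36 in Met fl/fl. The difference of 0.37 (95% interval -0.06 to 0.80) did not pass (limma adjusted p = 0.150). Gclm probe ILMN_1256354 read 1231, 1381 and 1567 units in Egfr fl/fl and 2292, 1658 and 1526 units in Met fl/fl. After normalization its levels lay within 10.44 to 10.71 on all 6 arrays. The Gclm difference was 0.11, with an interval from -0.15 to 0.38.

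Txnrd1 encodes the cytosolic reductase that keeps thioredoxin reduced, and it was lower in Met fl/fl. Its single probe, ILMN_2484465, read 81.1, 80.5 and 143 units in Egfr fl/fl and 79.7, 44.5 and 71.9 units in Met fl/fl. All Egfr fl/fl signals lay above all Met fl/fl signals, by a narrow margin between 80.5 and 79.7 units. Its log2 level was 6.93 ± 0.13 in Egfr fl/fl against 6.25 ± 0.32 in Met fl/fl (SD, n = 3 each), a difference of -0.68 ± 0.21 (SE), or 1.598-fold higher in Egfr fl/fl (limma adjusted p = 0.0282). The call ended when replicate 1 of Egfr fl/fl was left out (adjusted p = 0.0661), or replicate 1 (0.0732) or 2 (0.133) of Met fl/fl, and with median scaling (0.0722).

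Prdx1, a peroxiredoxin that reduces hydrogen peroxide with electrons from thioredoxin, did not pass the test by its bright probe. ILMN_1223738 read 17304, 17650 and 19141 units in Egfr fl/fl and 26967, 20265 and 18362 units in Met fl/fl. Its log2 levels lay between 14.21 and 14.38 on all arrays, and the difference was 0.016 with an interval from -0.20 to 0.24. The dim probe ILMN_2989706 read 30.2, 46.0 and 67.3 units against 80.1, 76.6 and 59.6 units, a difference of 0.40 (-0.04 to 0.85, limma adjusted p = 0.137). This probe passed with array weights (0.63, adjusted p = 0.0056). At its level the offset added before the log compresses differences.

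Srxn1 encodes sulfiredoxin, which repairs overoxidized peroxiredoxins. None of its 3 probes passed. ILMN_2677772, the brightest, read 224, 256 and 242 units in Egfr fl/fl and 343, 169 and 154 units in Met fl/fl, with Met fl/fl replicate 1 the highest of all 6 arrays by signal. Its log2 difference was -0.43 (95% interval -0.91 to 0.05, limma adjusted p = 0.139), and -0.60 without Egfr fl/fl replicate 3 (adjusted p = 0.0196). With array weights it was -0.64 (adjusted p = 0.0021). ILMN_2667346 read 59.8, 92.3 and 74.3 units against 125, 75.2 and 66.1 units, a difference of -0.0071. ILMN_1229994 read 29.9, 33.0 and 48.5 units against 40.5, 33.1 and 15.99 units, a difference of -0.28 (-0.69 to 0.13). The log2 levels of this dimmest probe did not overlap, with 5.68 the lowest in Egfr fl/fl and 5.67 the highest in Met fl/fl.

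Hmox1 encodes heme oxygenase, which opens the heme ring to biliverdin, iron and carbon monoxide. Its probe ILMN_2788073 read 304, 345 and 360 units in Egfr fl/fl and 581, 349 and 325 units in Met fl/fl. The log2 levels overlapped, from 8.32 to 8.77 in Egfr fl/fl and from 8.52 to 8.76 in Met fl/fl. The difference was 0.025 (95% interval -0.35 to 0.40, limma adjusted p = 0.922). Nqo1 encodes a quinone reductase that is a standard reporter of NRF2 activity, and neither of its probes was detected on any array. ILMN_2726371 ran from -4.01 to 5.95 units in Egfr fl/fl and from 1.25 to 13.5 units in Met fl/fl, and ILMN_2766386 from -9.67 to 2.34 units over all arrays. A probe that was not detected leaves the level under the detection limit and does not show that the transcript is missing.

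**Figure D2:**
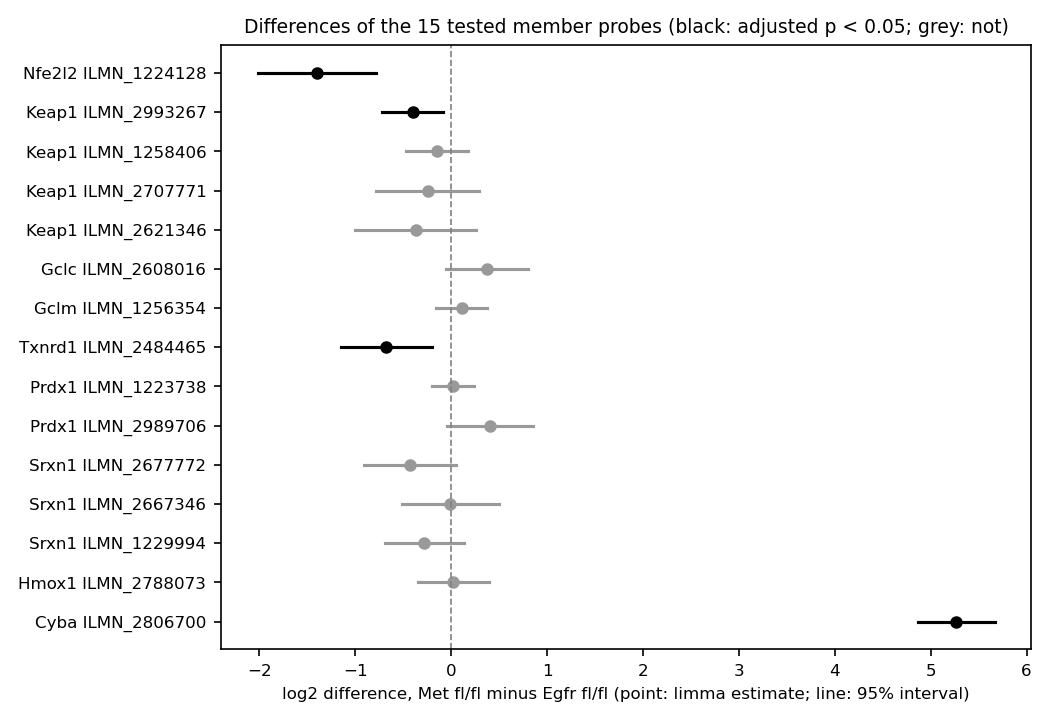
Log2 difference, Met fl/fl minus Egfr fl/fl (x axis), of the 15 tested member probes, with the limma estimate as a point and its 95% interval as a line. Black marks the 4 probes with an adjusted p under 0.05, among which Cyba lies at 5.27 and Nfe2l2, Txnrd1 and 1 Keap1 probe lie between -1.40 and -0.40, and the intervals of the other 11 reach 0.

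Cyba was detected on every Met fl/fl array and lay at or near the detection limit in Egfr fl/fl. Its single probe, ILMN_2806700, read 5.41, 5.85 and 16.5 units in Egfr fl/fl, with detection on replicate 3 alone. In Met fl/fl it read 1650.0, 1002 and 967 units. Every Met fl/fl array was far above every Egfr fl/fl array. Its log2 level was 4.82 ± 0.16 in Egfr fl/fl against 10.08 ± 0.15 in Met fl/fl (SD, n = 3 each, limma adjusted p = 3.32e-08). Since 2 Egfr fl/fl arrays did not detect the probe, the difference is a lower bound, at least 35.2-fold, with the dim arrays raised to their lowest detected level. Its Met fl/fl arrays alone were enough for the probe to enter the test. In Egfr fl/fl the p-value rests on values at or near background. The fitted log2 difference of 5.27 was 5.30 without Egfr fl/fl replicate 3.

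None of the tested partners of Cyba passed. Of 16 listed NADPH oxidase and dual oxidase genes 13 had a probe. Only Nox4, a catalytic subunit that makes hydrogen peroxide, Noxo1, an organizer subunit, and the GTPase gene Rac1 were detected on all 6 arrays and tested. Nox4 had log2 levels of 7.52 ± 0.59 in Egfr fl/fl against 7.59 ± 0.56 in Met fl/fl (SD, n = 3 each), a difference of 0.06 (limma adjusted p = 0.899). Rac1 differed by 0.20 (0.359) and Noxo1 by 0.39 (0.121), or -0.40 by another Noxo1 probe. The brightest Noxo1 probe passed without Egfr fl/fl replicate 3 (0.49, adjusted p = 0.0441) and with array weights (0.52, 0.0093).

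The remaining oxidase genes were at the detection limit. Cybb, the catalytic subunit of phagocytes that pairs with Cyba, and its cytosolic partners Ncf1 and Ncf4 were detected on no array, and neither were Nox1, Noxa1, Duox2 and Duoxa1. Nox3 reached detection on 1 array of Met fl/fl, and Rac2 and Rac3 each on 1 Egfr fl/fl array.

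Since Cyba is abundant in macrophages and neutrophils, markers of those cells are given beside it. Of 18 leukocyte markers with a probe 11 were detected on no array, among them Ptprc, Adgre1, Itgam, Lyz2, Laptm5 and Tyrobp, which define leukocytes or macrophages. Cd68, Itgb2 and Cd52 were each detected on 1 Met fl/fl array. Spi1 was also detected, on fewer than 3 arrays, and was not tested. Of 3 tested, Marco, a macrophage scavenger receptor, was detected on Met fl/fl replicates 1 and 3 at 23.7 and 20.1 units and on 1 Egfr fl/fl array, and its difference of 0.28 did not pass (limma adjusted p = 0.288). Cd14, a coreceptor for lipopolysaccharide, was higher in Met fl/fl by 1.57 (limma adjusted p = 4.12e-05), and Csf1r, the receptor for a macrophage growth factor, was detected in Egfr fl/fl only and was at least 1.47-fold higher there. The summed deposited signal of the list ran from 389 to 674 units in Egfr fl/fl and from 1256 to 1665 units in Met fl/fl. Cd14 alone read 348, 274 and 534 units in Egfr fl/fl and 1565, 1320 and 1178 units in Met fl/fl. Without it the sums ran from 91.3 to 141 units and from 51.9 to 100.2 units. The part of such cells in the Cyba difference was not tested.

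**Figure D3:**
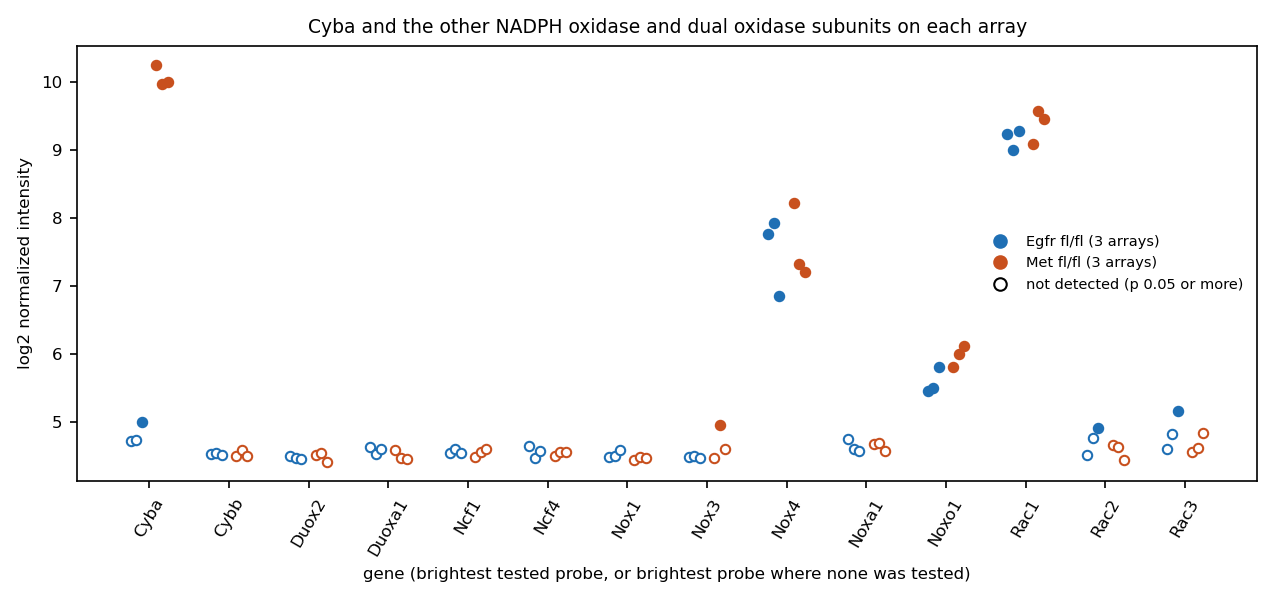
Log2 normalized intensity (y axis) of Cyba and of 13 other NADPH oxidase and dual oxidase genes on each Egfr fl/fl array (blue) and Met fl/fl array (orange), with open points where the probe was not detected. Cyba moves from 4.82 to 10.08 between the group means, while Nox4, Noxo1 and Rac1 were detected in both groups and Cybb, Ncf1 and Ncf4 on no array.

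The probes whose levels ran most like Cyba over the 6 arrays, by Pearson r, were those of Sytl2, a regulator of vesicle traffic (0.999), the myosin gene Myo6 (0.999), the mitotic gene Cdc20 (0.999), the histone gene H2az1 (0.999) and Cuta (0.999). All 5 were higher in Met fl/fl and detected on all 6 arrays, with log2 differences of 3.05 for Sytl2, 0.70 for Myo6, 1.98 for Cdc20, 0.63 for H2az1 and 0.60 for Cuta. The measure follows the difference between the groups and the order within them over 6 arrays and not its size.

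The wider pathway was described by 8 lists that leave out the members. Of 119 listed genes 114 had a probe and 85 were tested, each by its brightest tested probe. In all 43 (50.6%) passed, of which 16 were higher and 27 lower in Met fl/fl, and the median difference was -0.073. Over all 8561 gene symbols tested 41.4% passed (22.8% higher and 18.6% lower in Met fl/fl), and the median was 0.068. Among the 9 tested members 4 passed by the brightest probe (44.4%). The lists were not tested as sets, and the counts per list below stand beside these shares over all tested genes.

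Among regulators of NRF2 1 of 13 tested genes rose in Met fl/fl and 4 were higher in Egfr fl/fl (median 0.085). The small MAF genes Mafg and Maff, whose proteins pair with NRF2 on DNA, were lower in Met fl/fl by -1.07 ± 0.15 (SE, limma adjusted p = 0.000428) and -0.80 ± 0.19 (0.00883). Sqstm1, whose autophagy receptor protein can draw KEAP1 away from NRF2, differed by -0.50, and Nfe2l1, a relative of NRF2, by -0.48. Dpp3, a peptidase that can bind KEAP1, was higher in Met fl/fl by 0.67. Another Dpp3 probe gave 1.07 (limma adjusted p = 0.00173). Trp53inp1, also of this list, did not pass by its brightest probe (0.45), while another passed at 0.88 (0.0056). The brightest Dpp3 probe lost its call without Egfr fl/fl replicate 1 or 2 or Met fl/fl replicate 2 or 3. Its adjusted p then ran from 0.0515 to 0.06002. The Nfe2l1 call ended without Met fl/fl replicate 2 (0.0980) or 3 (0.0685), with median scaling (0.203) and with no variance trend (0.0536). That of Maff ended without Met fl/fl replicate 2 (0.0541), and that of Sqstm1 with median scaling (0.185). Cul3 (0.08) and Rbx1 (-0.03), which encode parts of the ligase that degrades NRF2, did not pass by their brightest probes, while another Rbx1 probe passed at -0.90 (0.000604).

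For glutathione synthesis and recycling 1 of 12 tested genes was higher in Met fl/fl and 4 were higher in Egfr fl/fl (median -0.076). Chac1, which degrades glutathione, was lower in Met fl/fl by -2.16 ± 0.14 (SE, limma adjusted p = 2.23e-06). Slc3a2, the heavy chain of amino acid exchangers including that for cystine, differed by -1.36, and Glrx, a glutaredoxin, by -0.67. Slc7a11 of the same list, the other chain of the cystine exchanger, was detected on 3 arrays. It did not pass (-0.15, limma adjusted p = 0.5355). Oplah, which returns oxoproline to glutamate, was detected on 2 arrays of Met fl/fl, so its excess in Egfr fl/fl is a bound, at least 2.07-fold higher. Gpx8, a peroxidase of the endoplasmic reticulum, was higher in Met fl/fl by 1.06, and its other probes gave 1.18 and 1.24. The Glrx call ended without Egfr fl/fl replicate 1 (adjusted p = 0.0815) or 2 (0.0715) and without Met fl/fl replicate 2 (0.0664) or 3 (0.0850).

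The thioredoxin and peroxiredoxin genes beside the members had 13 tested genes, of which 1 was higher and 4 were lower in Met fl/fl (median -0.22). Txnip, which binds and restrains thioredoxin, was lower in Met fl/fl by -1.15 ± 0.15 (SE, limma adjusted p = 0.000212). Txn1, thioredoxin itself and the substrate of Txnrd1, differed by -0.78 ± 0.16 (0.00326). The methionine sulfoxide reductase gene Msrb2 differed by -0.87 and the peroxiredoxin gene Prdx5 by -0.69, and both calls ended without Egfr fl/fl replicate 1 or without Met fl/fl replicate 2 or 3 (adjusted p up to 0.0731 and 0.0793), that of Prdx5 also without Egfr fl/fl replicate 2. Sesn3, a sestrin, was higher in Met fl/fl by 0.56, a call that ended in 12 of 17 settings, with every array but Egfr fl/fl replicate 2 left out among them (adjusted p up to 0.142). Without Egfr fl/fl replicate 3 its difference was 0.48 (0.0638). The probes of Prdx2 disagreed: the brightest did not pass at 0.17, while the others passed at -0.54 and -0.59 (adjusted p = 0.0262 and 0.0340).

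Genes listed under the supply of NADPH, the electron donor of both the reductases and the oxidases, moved in both directions, 3 of 12 tested each way (median 0.011). Being listed does not mean that an enzyme makes NADPH itself. Taldo1, transaldolase of the pentose phosphate pathway, was higher in Met fl/fl by 0.68 ± 0.11 (SE, limma adjusted p = 0.00096), followed by H6pd (0.52), a pentose phosphate enzyme of the endoplasmic reticulum, and Pgd (0.37), a cytosolic one. Mthfd2 of mitochondrial folate metabolism (-1.30), the isocitrate dehydrogenase gene Idh2 (-1.05) and the malic enzyme gene Me1 (-0.65) were lower there. With median scaling Pgd, Me1 and H6pd did not pass, and neither did any of them without Egfr fl/fl replicate 1 (adjusted p = 0.0704, 0.0506 and 0.0706). The calls of Pgd and Me1 also ended without Met fl/fl replicate 3 (0.0903 and 0.0530), and that of Pgd without replicate 2 of either group (0.104 for Egfr fl/fl and 0.0804 for Met fl/fl) and with no variance trend (0.0705).

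In heme and iron handling 9 genes were tested, of which 4 were higher and 2 lower in Met fl/fl (median 0.25). In the step after heme oxygenase, the biliverdin reductases Blvrb and Blvra were higher in Met fl/fl by 1.76 ± 0.24 (SE, limma adjusted p = 0.000304) and 0.51 ± 0.14 (0.0131). The iron exporter gene Slc40a1 rose by 0.85 and Abcb6, a porphyrin transporter, by 0.66. Tfrc, the transferrin receptor, differed by -0.98, and Fech, which inserts iron to complete heme, by -1.08, with -0.79 and 0.06 by its other probes. The calls of Abcb6 and Blvra ended with median scaling and without Egfr fl/fl replicate 1 or Met fl/fl replicate 2 or 3 (adjusted p up to 0.145 and 0.147), that of Abcb6 also without Egfr fl/fl replicate 2 (0.0735), and that of Fech without Met fl/fl replicate 1 (adjusted p = 0.0587).

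Xenobiotic-metabolizing targets held the most differences, with 5 of 17 tested genes higher in Met fl/fl, 8 higher in Egfr fl/fl (76.5% past the threshold) and a median of -0.43. Gsta3, Gstm1 and Mgst1, which encode glutathione transferases, were lower in Met fl/fl by -5.88, -1.75 and -1.56. Other probes gave -2.28 for Gsta3, 0.07 for Gstm1 and -1.90 for Mgst1. Ugt1a6a, a glucuronosyltransferase, was detected in Egfr fl/fl only and was at least 1.97-fold higher there. Its probe entered the test through Egfr fl/fl alone, and its Met fl/fl values are background. The Ugt1a6a call ended without Met fl/fl replicate 1 (limma adjusted p = 0.0716) or 3 (0.0637). The aldo-keto reductases Akr1b8 and Akr1b3 were higher in Met fl/fl by 2.15 ± 0.21 and 1.96 ± 0.14 (SE, limma adjusted p = 3.70e-05 and 3.80e-06). Nqo2, a quinone reductase related to Nqo1, was higher there by 1.54, with 1.25 and 1.31 by its other probes. Gsta1, with detection on 2 arrays of Egfr fl/fl, had a level in Met fl/fl at least 2.93-fold higher. Transferases of 1 family have like sequences, and whether their probes tell them apart was not tested.

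Among 6 genes that remove superoxide and peroxide 1 was higher in Met fl/fl and 2 were higher in Egfr fl/fl (median -0.30). Sod3, the extracellular superoxide dismutase, was detected on all arrays of Egfr fl/fl and on none of Met fl/fl, a difference of at least 2.40-fold. Its probe entered the test through the Egfr fl/fl arrays alone. The Met fl/fl values are background, so its limma adjusted p (8.05e-05) does not measure the spread of transcript there. Sod1, the cytosolic enzyme, differed by -0.61 ± 0.14 (SE, adjusted p = 0.00567), a call that ended with median scaling (0.0606). Oxsr1, the 1 higher in Met fl/fl (0.61), encodes a kinase and not an enzyme that removes superoxide or peroxide. Its call ended without Met fl/fl replicate 2 (0.0630), with median scaling (0.202) and with no filter on dim probes (0.0750). Catalase (Cat, -0.38) and mitochondrial Sod2 (-0.21) did not pass.

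**Figure D4:**
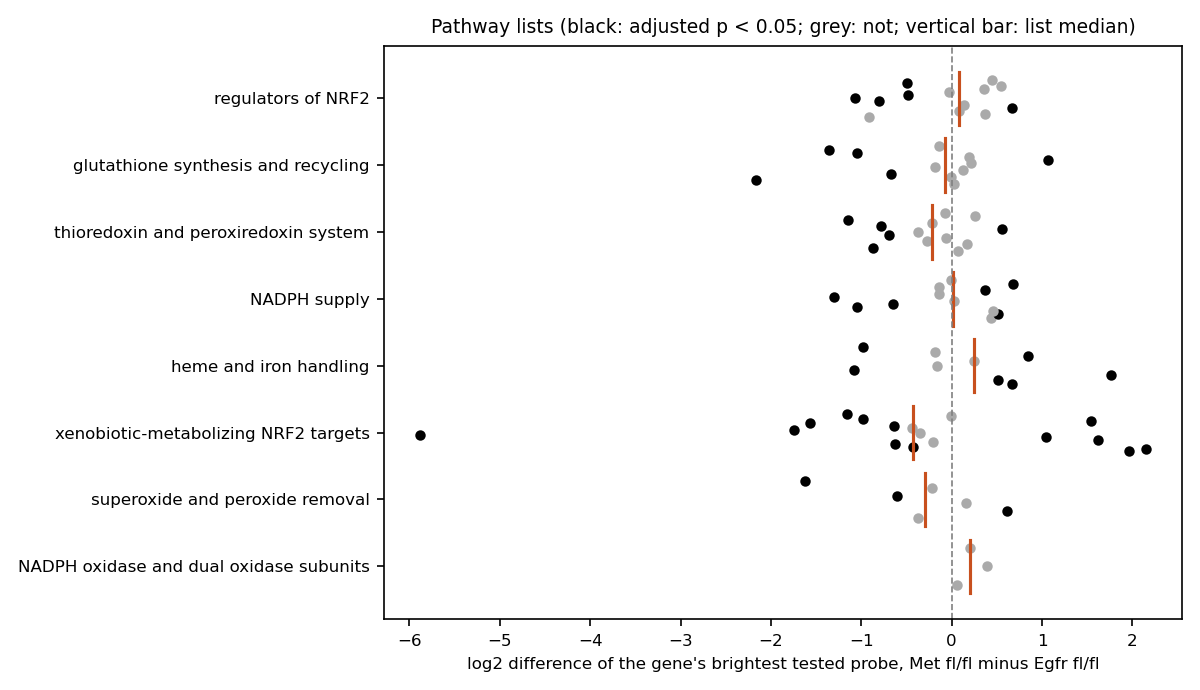
Log2 difference, Met fl/fl minus Egfr fl/fl (x axis), of each tested gene of the 8 pathway lists by its brightest tested probe. Black points had an adjusted p under 0.05, grey points did not, and the vertical bars are list medians, which run from -0.43 for xenobiotic-metabolizing targets to 0.25 for heme and iron handling.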

How the data were processed

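Per the labels, biotin-labelled cRNA was hybridised to 1-colour Illumina arrays, which were read with GenomeStudio 2011.1 per the submitters' processing notes. The deposited non-normalized table held an intensity from which the authors had subtracted background (26.9% to 31.1% of an array's values were below 0) and a detection p-value per probe, named per the file headers. A deposited matrix of quantile-normalized intensity on a linear scale served as an alternative. In limma 3.58.1 (R 4.3.3) normexp took its negative controls from the detection p-values, 16 was added as offset, and log2 values were quantile normalized. The 11578 of 25697 probes with detection p under 0.05 in 3 or more samples entered lmFit and eBayes (variance trend, no covariates), with Benjamini-Hochberg adjustment over all of them. The number of arrays limits the precision. The fit was tested on simulated data.

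Symbols of the table were kept for members. For lists, 14307 symbols were current in RefSeq for GRCm38.p6, 2906 were updated through a synonym and 925 kept as given. Of the oxidase list 1 gene is not reported here. Members and lists were chosen with earlier results of these data known. Named were all member probes, up to 4 genes past the threshold in each direction from each list (or the 1 with the largest difference), each oxidase subunit by detection, and the 5 named probes most correlated with Cyba. Single genes named beside these were chosen after their values were seen. No 2 arrays shared identical values. Alternatives covered background, normalization, offset, filter, variance model, array weights, the replicate block and each array left out. A robust estimate of the negative controls was chosen after seeing the data.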

Additional observations from a re-analysis of the deposited data

How the results depend on the processing

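Cyba and Nfe2l2 kept their direction and their call in all 16 alternative settings that tested them, with log2 differences of 4.17 to 7.18 and of -1.87 to -0.95. For both, the offset of 50 gave the smallest size and no further background correction the largest. The count of member probes past the threshold, 4, was 2 with median scaling (1 each way) and 2 with the stricter filter (detection p under 0.01 in all 6 samples), where Cyba and Nfe2l2 were not tested. With an array left out it ran from 2 (without Egfr fl/fl replicate 1, Met fl/fl replicate 1 or Met fl/fl replicate 2) to 5. Array weights called 6993 of all tested probes, against 4613, and 6 member probes; with an array left out the total ran from 3149 to 5547. Same-numbered arrays deviated from their group means with correlations of 0.237, -0.145 and 0.320, so the numbers were not taken to pair them. The replicate number as a block gave 3 member calls and 5101 calls in all, and the Keap1 call ended (adjusted p = 0.0568). For the pathway lists 30 to 46 genes passed with an array left out and 32 to 58 otherwise, against 43.

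Several uncalled differences near 0 changed sign. Prdx1 probe ILMN_1223738 gave -0.021 with cyclic loess and -0.034 to 0.046 with an array left out. Hmox1 gave -0.054 with cyclic loess, -0.099 with array weights and -0.10 to 0.12 with an array left out. Srxn1 probe ILMN_2667346 gave 0.00022 with the authors' matrix and -0.17 to 0.21 with an array left out, and Keap1 probe ILMN_2707771 ran from -0.44 to 0.0052. Of 39 list genes named by the rule 21 kept their call in every setting that tested them, and 17 lost it in at least 1 setting. Noxo1 had no call to lose, and 0 of the 39 changed direction. The cause of these changes was not tested.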
